A study of Mus musculus with 6 samples.

Results

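The miR-142 hairpin gives rise to 2 mature microRNAs, miR-142-5p from its 5′ arm and miR-142-3p from its 3′ arm. Both were captured by the arrays, each by 1 probe printed as 4 spots, and the members were found as the spots whose array name holds mmu-miR-142-3p or mmu-miR-142-5p. They are 2 of 597 mouse miRNA probes, or 8 of 2388 mouse spots. Each probe carries the human, mouse and rat names of its miRNA together, so the array does not tell the species apart.

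The samples were retinal cells of B10.RⅢ mice aged 8 weeks. The 3 EAU samples came from mice developing experimental autoimmune uveoretinitis (EAU), taken on day 14, and the 3 naive samples from mice without the disease. EAU is a T cell disease directed at proteins of the retina and serves as a mouse model of human uveitis. The labels do not state the immunisation or how many mice each sample holds, only that the samples were harvested independently. Of each sample, 800 ng of total RNA took the dye Hy3 and was hybridised to a locked nucleic acid capture array beside one reference, a pool to which all samples gave equally, in the dye Hy5. Dyes were not swapped. The comparison asks which miRNAs differ between EAU and naive retinal cells.

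A miRNA hairpin is cut first in the nucleus and then in the cytoplasm into a short duplex, and one strand of the duplex is loaded into an Argonaute protein, where its seed, bases 2 to 8, pairs with target mRNAs. MiR-142 is transcribed in cells of the blood lineages and hardly at all elsewhere in the body, and both of its arms accumulate in white blood cells. Mice that lack it have defects in several kinds of leukocyte.

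The sequences show how the arms differ and what a probe for each can capture. They are those of RefSeq on mouse build GRCm38.p6, in which both members found an entry, under the name miR-142a, in the gene Mir142 on the plus strand of chromosome 11. The hairpin lies at chr11:87756864-87756927 (64 bases), miR-142-5p at chr11:87756867-87756887 (21 bases) and miR-142-3p at chr11:87756903-87756925 (23 bases). The nearest protein-coding genes are Supt4a at lower and Tspoap1 at higher coordinates. In the mature sequences the capitals mark the seed, and in the hairpin they mark the arms.
miR-142-5p: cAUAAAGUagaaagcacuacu
miR-142-3p: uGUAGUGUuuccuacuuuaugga
hairpin: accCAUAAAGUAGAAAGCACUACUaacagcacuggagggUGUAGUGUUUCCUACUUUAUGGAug
miR-142b: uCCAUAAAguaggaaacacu

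The arms share no seed, and in the RefSeq table no other mouse mature miRNA has the seed of either at its own bases 2 to 8. Folded with RNAfold, the hairpin had 19 base pairs between the arms and a minimum free energy of -26.90 kcal/mol. MiR-142b, read from the minus strand at chr11:87756906-87756925, lies with all of its 20 bases opposite the 3p arm and has no probe of its own among the array names. It matches miR-142-5p at 16 of 18 aligned bases, and how far the 5p probe takes it up was not tested.

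The arrays were dim. The median spot brightness lay between 56.2 and 94.8 scanner units on the EAU arrays and between 56.8 and 74.2 on the naive arrays (sample channel), where the glass around the spots gave 22 to 24. Brightness was therefore read against 144 blank spots on each array, 116 of them empty and 28 negative controls; the blank limit is their median plus 3 median absolute deviations, and a probe counts as above the blanks where at least 50% of its spots are. By this measure 249 to 315 mouse probes were above the blanks on the EAU arrays and 252 to 292 on the naive arrays. The photoreceptor miRNAs miR-183, miR-96 and miR-182 were above the blanks on all 6 arrays. The EAU arrays share one scan day and the naive arrays another, with 1 array a slide, so scan day and disease cannot be told apart.

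Both arms of miR-142 were above the blanks on all 3 EAU arrays and on no naive array. The 3p spots, averaged per array, had a brightness of 147, 351 and 225 on the EAU arrays, against 76.7, 80.0 and 58.9 on the naive arrays. The 5p spots had 98.8, 250.2 and 95.8 on the EAU arrays, against 54.6, 51.9 and 45.0 on the naive arrays. The groups did not overlap for either arm, EAU replicate 2 was the brightest array for both, and the 3p probe was the brighter of the pair on every array. How many of all mouse probes separate this way in raw brightness was not counted. Brightness is not comparable between probes as an amount of RNA, since each captures its own target.

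Single spots separated as the averages did. For miR-142-3p the 12 EAU spots had a lowest, median and highest brightness of 141.7, 195 and 498, and the 12 naive spots 54.9, 74.8 and 86.9. For miR-142-5p the values were 74.1, 109 and 271 over the EAU spots and 43.9, 51.9 and 57.1 over the naive spots. The blank limits were 72.7, 107 and 65.4 on EAU arrays 1 to 3 and 89.3, 92.1 and 65.7 on naive arrays 1 to 3. For each arm 12 of 12 EAU spots and 0 of 12 naive spots exceeded the limit of their own array. The 4 spots on an array are repeats of 1 sample, so the 12 spots stand for 3 arrays. How many of all mouse probes have spots that split this way was not counted.

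Set against the median blank of the same array, the 3p spots were 2.89, 5.26 and 4.77 times as bright on the EAU arrays and 1.26, 1.29 and 1.21 times on the naive arrays, a mean of 4.31 ± 1.25 in EAU and 1.25 ± 0.04 in naive samples (SD, n = 3 each; two-sided exact permutation p = 0.1, the smallest that 3 against 3 arrays allow). The 5p spots were 1.94, 3.75 and 2.03 times as bright as the median blank on the EAU arrays, and 0.90, 0.835 and 0.921 times on the naive arrays (exact permutation p = 0.1). The naive 5p level thus lay under the middle of the blanks, while the naive 3p level lay over it.

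**Figure D1:**
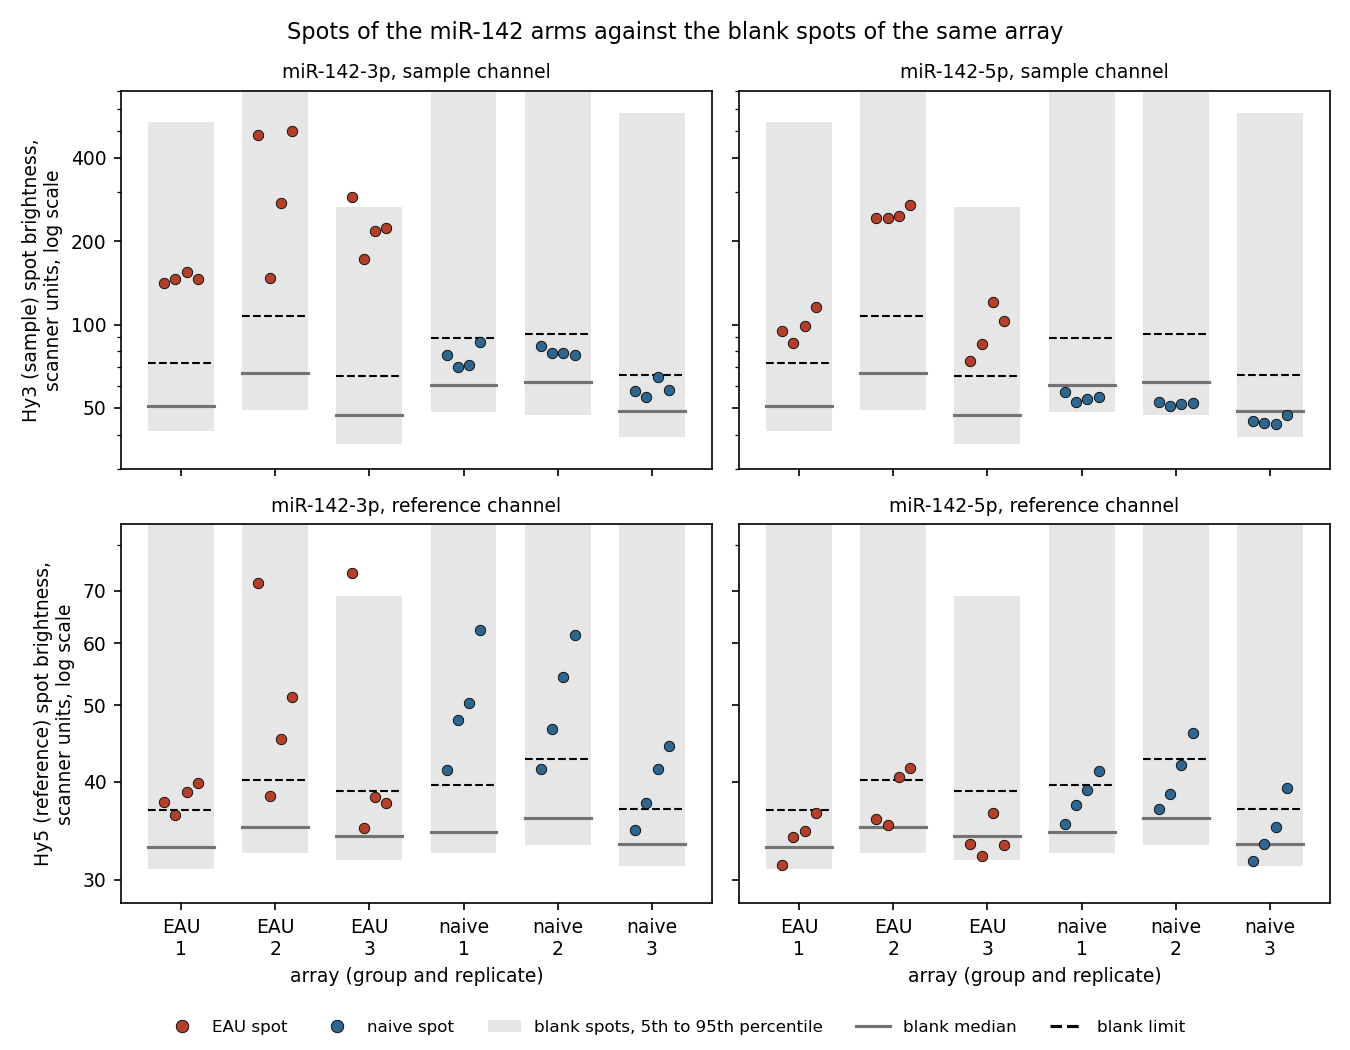
Brightness of the 4 spots of each arm (points) on the 3 EAU and 3 naive arrays, in the sample channel (top) and the reference channel (bottom), in scanner units on log axes, with the blank spots of the same array as a grey band (5th to 95th percentile, running off the top where blanks are brighter than the axis), their median (grey line) and the blank limit (dashed line). In the sample channel all 12 EAU spots of each arm lie over the dashed line and all 12 naive spots under it; in the reference channel the groups overlap.

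The blanks had a bright tail, so the limit does not separate the arms from every blank spot. The 95th percentile of the blanks was 539, 1005 and 265 on the EAU arrays and 839, 850 and 581 on the naive arrays. On the EAU arrays 12.5%, 8.33% and 7.64% of the 144 blanks were at least as bright as miR-142-3p, against 29.2%, 30.6% and 29.2% on the naive arrays. For miR-142-5p these shares were 14.6%, 11.8% and 17.4% on the EAU arrays and 72.9%, 85.4% and 72.9% on the naive arrays. The bright blanks were mostly empty spots: of the 28 negative controls, 1, 0 and 1 reached the 3p level on the EAU arrays and 1, 5 and 0 on the naive arrays. For the 5p level 1, 0 and 3 negative controls did so on the EAU arrays, and 13, 18 and 11 on the naive arrays. The naive 3p probe was thus brighter than most negative controls while staying under the blank limit.

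Being above the blanks on all EAU arrays and on no naive array was uncommon on this platform, at 9 of 597 mouse probes (1.51%); 4 probes showed the opposite. The others of the 9 were miR-21, an inflammation-inducible miRNA, and miR-297c, miR-16*, miR-880, miR-10a*, miR-296-3p and miR-221, which are named after their values were seen. Of the 9, miR-21 had the largest EAU minus naive difference of log2(Hy3/Hy5), at 1.16 (limma, adjusted p = 0.0266), and miR-142-3p and miR-142-5p came next.

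In the log2 ratio of sample over reference, miR-142-3p had 0.15, 0.26 and 0.25 on the EAU arrays, against -0.49, -0.29 and -0.23 on the naive arrays. The groups did not overlap, and every EAU array was positive and every naive array negative. The means were 0.22 ± 0.06 in EAU and -0.34 ± 0.14 in naive samples (SD, n = 3 each), a difference of 0.56 (SE 0.08, 95% interval 0.37 to 0.74), or 1.47-fold on the compressed scale that the background offset of 50 gives. MiR-142-3p rose by this test (limma, Benjamini-Hochberg adjusted p = 0.0166 over 595 tested mouse probes). Of these probes 77 passed in either direction (12.9%), 25 of them higher in EAU (4.20%), and the 3p difference ranked 6th from the highest.

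MiR-142-5p had log2 ratios of 0.11, 0.51 and 0.16 on the EAU arrays, against -0.23, -0.28 and -0.13 on the naive arrays. Here too no array of one group reached the other, with EAU replicate 2 standing well over the other EAU arrays. The means were 0.26 ± 0.22 in EAU and -0.21 ± 0.08 in naive samples (SD, n = 3 each). The difference of 0.47 (SE 0.12, 95% interval 0.18 to 0.77, 1.39-fold) missed the threshold of 0.05 (limma, adjusted p = 0.0582) and ranked 10th from the highest. Without EAU replicate 2 it was 0.35 and passed (limma, adjusted p = 0.0359). Groups that do not overlap with EAU on top were found for 17.0% of tested probes, so that feature alone does not set the arms apart.

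The sample channel was also read without dividing each probe by its own reference value, and both arms then passed the threshold. The reference still enters this scale, through the loess curve and through the mean of both channels that was matched across arrays. MiR-142-3p had log2 brightness of 6.74, 6.95 and 7.44 on the EAU arrays, against 6.14, 6.12 and 6.16 on the naive arrays, a difference of 0.90 (SE 0.18; limma, adjusted p = 0.0359). MiR-142-5p had 6.44, 6.87 and 6.61 on the EAU arrays, against 5.90, 5.86 and 5.92 on the naive arrays, a difference of 0.74 (SE 0.11; limma, adjusted p = 0.0182). Quantile scaling of this channel without loess uses no reference value. It gave 1.27 for the 3p arm, which then missed the threshold (limma, adjusted p = 0.0519), and 1.05 for the 5p arm (limma, adjusted p = 0.00938). In the sample channel after loess 26 of 595 probes rose (4.37%), 13.9% had groups that did not overlap with EAU on top, and the differences of the 3p and 5p arms ranked 2nd and 5th from the highest. Since both arms were under the blanks on all naive arrays, the naive level is only a bound, taken as the mean over naive arrays of the probe's own level or the lowest level among probes above the blanks, whichever was higher. Against that bound the mean of miR-142-3p was at least 1.77-fold higher in EAU (7.04 in EAU and a measured 6.14 in naive samples). That of miR-142-5p was at least 1.34-fold higher (6.64 in EAU and 5.90 in naive samples). Both are on the sample-channel scale and rest on group means, without the spread among arrays. Against the measured naive level, the 95% intervals of the log2 differences were 0.455 to 1.35 for the 3p arm and 0.47 to 1.02 for the 5p arm. The bound can be biased by the dye, as no dyes were swapped.

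The authors' deposited ratios, taken to log2, showed the same order of groups with larger steps. MiR-142-3p had 0.63, 0.71 and 1.33 on the EAU arrays, against -0.89, -0.58 and -0.48 on the naive arrays, a difference of 1.54 (SE 0.21; limma, adjusted p = 0.000306). MiR-142-5p had 0.40, 1.17 and 0.56 on the EAU arrays, against -1.29, -1.48 and -1.37 on the naive arrays, a difference of 2.09 (SE 0.21; limma, adjusted p = 6.38e-06). Among these ratios 42 of 588 mouse probes rose (7.14%), 16.3% had groups that did not overlap with EAU on top, and the 3p and 5p arms ranked 3rd and 2nd from the highest difference. How the deposited ratios were normalized and centred is not given in the sources used here.

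**Figure D2:**
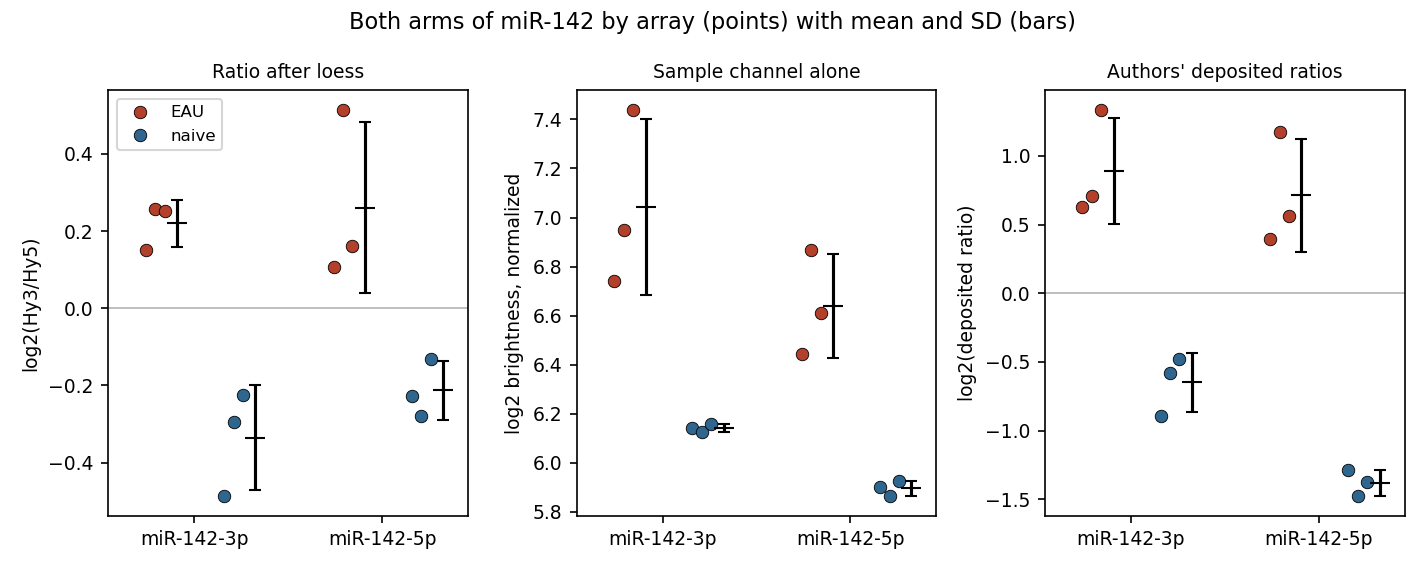
Values of miR-142-3p and miR-142-5p on each of the 3 EAU and 3 naive arrays (points) with the group mean and SD (bars), as log2(Hy3/Hy5) after loess (left), normalized log2 brightness of the sample channel (middle) and log2 of the authors' deposited ratio (right); the vertical scales differ. On all 3 scales every EAU array lies over every naive array for both arms.

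The reference channel, which holds the same pool on every array, was close to its blanks at these probes. Its 3p brightness was 38.1, 51.6 and 46.1 on the EAU arrays and 50.5, 51.0 and 39.5 on the naive arrays (exact permutation p = 0.7). Its 5p brightness was 34.1, 38.3 and 33.8 on the EAU arrays and 38.3, 40.9 and 34.8 on the naive arrays (exact permutation p = 0.3). Reference spots over the blank limit of that channel numbered 7 of 12 on the EAU arrays and 10 of 12 on the naive arrays for the 3p arm, and 2 of 12 on the EAU arrays and 3 of 12 on the naive arrays for the 5p arm. For miR-142-5p the denominator of the ratio was therefore mostly at blank level, and the ratio's size depends on how the background is handled.

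The 4 spots of an arm, which lie one after another along the slide, did not give equal ratios. Over the naive arrays the 3p log2 ratio averaged -0.06, -0.28, -0.41 and -0.59 from the first to the last spot, while the reference brightness at these spots averaged 39.2, 44.1, 48.7 and 56.1 and the sample brightness stayed between 68.0 and 74.4. The naive 5p ratios averaged -0.08, -0.16, -0.24 and -0.36 in the same order. Over the EAU arrays the 3p ratios averaged -0.01, 0.28, 0.28 and 0.34, and the 5p ratios lay between 0.23 and 0.29. The first 3p spot stood in a raised local background of 57 on EAU replicate 2 and 107 on EAU replicate 3, more than 2 times the array's median. The 3p difference was 0.72 without the first spots, 0.43 without the last and 0.64 without the 2 spots of raised background, and it passed the threshold each time. With loess run separately in 4 bands of the slide it was 0.53 (limma, adjusted p = 0.0162), and that of the 5p arm was 0.47 (limma, adjusted p = 0.104).

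Whether the arms moved by unequal amounts was asked within each array, as the 3p log2 ratio minus the 5p log2 ratio. This was 0.04, -0.26 and 0.09 on the EAU arrays, against -0.26, -0.01 and -0.09 on the naive arrays. The groups overlapped, with means of -0.04 ± 0.19 in EAU and -0.12 ± 0.13 in naive samples (SD, n = 3 each), and the difference of 0.08 was within that spread (exact permutation p = 0.5). In the sample channel the difference was 0.16 (exact permutation p = 0.7), and in the authors' deposited ratios it was -0.55 (exact permutation p = 0.2), with the sign turned. Neither a larger change of one arm nor an equal change of both was shown by these 6 arrays.

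Apart from miR-142-3p no miRNA of the leukocyte list passed the test in the log2 ratio. Of the 7 leukocyte probes, 1 rose, which is miR-142-3p, none fell and 6 did not pass, beside 4.20% of all 595 tested probes that rose and 8.74% that fell. The median difference was 0.13 over the list and -0.01 over all tested probes. In the sample channel 2 of the 7 rose, the arms of miR-142, beside 4.37% of all probes. MiR-223, an abundant miRNA of neutrophils and other myeloid cells, was above the blanks on all 6 arrays. Its log2 ratios were -1.05, -1.02 and -1.35 on the EAU arrays and -1.09, -0.91 and -1.79 on the naive arrays, which overlap, and its difference was 0.13 (SE 0.25; limma, adjusted p = 0.751). Its raw brightness was 185, 402 and 209 on the EAU arrays, against 138, 149 and 141.7 on the naive arrays.

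MiR-150, a miRNA of mature lymphocytes, was likewise above the blanks on all 6 arrays and differed by -0.10 (limma, adjusted p = 0.294). MiR-155, which activated lymphocytes and macrophages induce, was above the blanks on no array and differed by 0.09 (limma, adjusted p = 0.142). MiR-342-3p and miR-342-5p, both from an intron of the Evl gene, differed by -0.02 and 0.13 (limma, adjusted p = 0.682 and 0.152). The summed brightness of the 7 leukocyte probes over local background ran from 641 to 1477 on the EAU arrays and from 389 to 470 on the naive arrays. Without the arms of miR-142 the sums of the other 5 probes were 442, 931 and 387.0 on the EAU arrays, against 376, 386.8 and 329 on the naive arrays, so that EAU replicate 3 and naive replicate 2 were almost level. Each of the 5 averaged brighter in EAU, a share not counted over all probes, and EAU replicate 2 was the brightest array in its median spot. For miR-342-3p only EAU replicate 2 was brighter than every naive array. Its raw brightness was 74.7, 117 and 51.4 on the EAU arrays, against 79.5, 85.8 and 71.2 on the naive arrays. With the arrays centred on their median the log2 ratios of miR-150, miR-155, miR-223, miR-342-3p and miR-342-5p differed by 0.31, 0.20, 0.80, -0.02 and 0.34, and none of them passed the threshold.

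Blood in the tissue carries red cells as well. Of the 3 erythroid probes none rose and 1 fell, beside 4.20% and 8.74% of all tested probes. MiR-451, the most abundant miRNA of red cells, was above the blanks on 3 EAU arrays and 1 naive array. Its raw brightness was 82.7, 186 and 83.6 on the EAU arrays, against 68.1, 75.2 and 63.6 on the naive arrays, without overlap, a split not counted over all probes. Its log2 ratio differed by 0.14 (limma, adjusted p = 0.245), with overlapping groups, and the log2 of the authors' deposited ratio by 0.55 (limma, adjusted p = 0.0535). MiR-144, from the same primary transcript, was above the blanks on no array and differed by 0.01. MiR-486, above the blanks on 3 EAU arrays and 2 naive arrays, fell by 0.23 in the log2 ratio (limma, adjusted p = 0.0463), but its difference was 0.10 with the arrays centred on their median and 0.01 in the sample channel. The summed brightness of the 3 probes over local background was 140 to 348 on the EAU arrays and 131 to 146 on the naive arrays.

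Of the 6 inflammation-inducible miRNAs 1 rose, which is miR-21, and 5 did not pass, beside 4.20% of all tested probes that rose. MiR-146b, a close relative of miR-146a, differed by 0.18 (limma, adjusted p = 0.0776). In the authors' deposited ratios it rose by 0.91 on the log2 scale (limma, adjusted p = 0.00632), beside 7.14% of mouse probes that rose there. MiR-21 passed there too, and the rest of the list did not.

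Markers of the retina's own cells differed among themselves. The summed brightness of the 3 photoreceptor probes was 418 to 1091 on the EAU arrays and 2726 to 3064 on the naive arrays. Of the 3, miR-183 fell in the log2 ratio (by 1.38, with EAU replicate 1 left out as an outlier; limma, adjusted p = 0.0483), beside 8.74% of all tested probes, and all 3 fell in the sample channel, beside 7.39%. Of the 10 neuronal probes 3 fell in the log2 ratio and none rose, beside 8.74% and 4.20% of all tested probes. In the sample channel 4 of the 10 fell and none rose, beside 7.39% and 4.37%. The summed brightness of the 10 neuronal probes was 6480 to 18040 on the EAU arrays and 44439 to 50451 on the naive arrays, nearly all of it from miR-124, which is highly abundant in neurons. The log2 ratio of miR-124 did not pass (-0.69, with EAU replicate 2 left out as an outlier; limma, adjusted p = 0.520), and its difference was 0.38 with the arrays centred on their median. MiR-124 did fall in the sample channel (-2.07; limma, adjusted p = 0.0193) and in the authors' deposited ratios (-0.86; limma, adjusted p = 0.0198). Without miR-124 the sums were 774, 1288 and 652 on the EAU arrays and 999, 1014 and 739 on the naive arrays, which overlap. Of these 9 probes 3 averaged brighter in EAU, a share not counted over all probes. Both miRNAs of the pigment epithelium fell, miR-204 by 0.73 (limma, adjusted p = 0.0291) and miR-211 by 0.50 (limma, adjusted p = 0.00702), beside 8.74% of all tested probes. Neither of the 2 endothelial probes passed, beside 12.9% of all tested probes that passed in either direction. What part these differences have in the miR-142 difference was not tested. In RNA of a whole tissue, more cells of a type and more RNA per cell cannot be told apart.

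Among the 232 mouse probes above the blanks on all EAU arrays with a value on every array, those whose centred log2 ratios over the 6 arrays were closest to miR-142-3p were miR-466i, miR-466f-3p, miR-467f and miR-297a*/miR-297b-3p/miR-297c* (1 probe). Their root mean square distances from it were 0.07, 0.08, 0.09 and 0.11 on the log2 scale, and their EAU minus naive differences 0.49, 0.54, 0.55 and 0.39. MiR-142-5p was 14th in that order, at 0.14. For miR-142-5p the closest were miR-466d-5p, miR-466i, miR-467e* and miR-325, at 0.06, 0.08, 0.09 and 0.09, and miR-142-3p was 26th. The neighbours were picked by closeness over the same 6 arrays, so their similar group differences follow from that choice and are no separate result. All of these named neighbours were above the blanks on the 3 naive arrays too, where neither arm of miR-142 was.

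**Figure D3:**
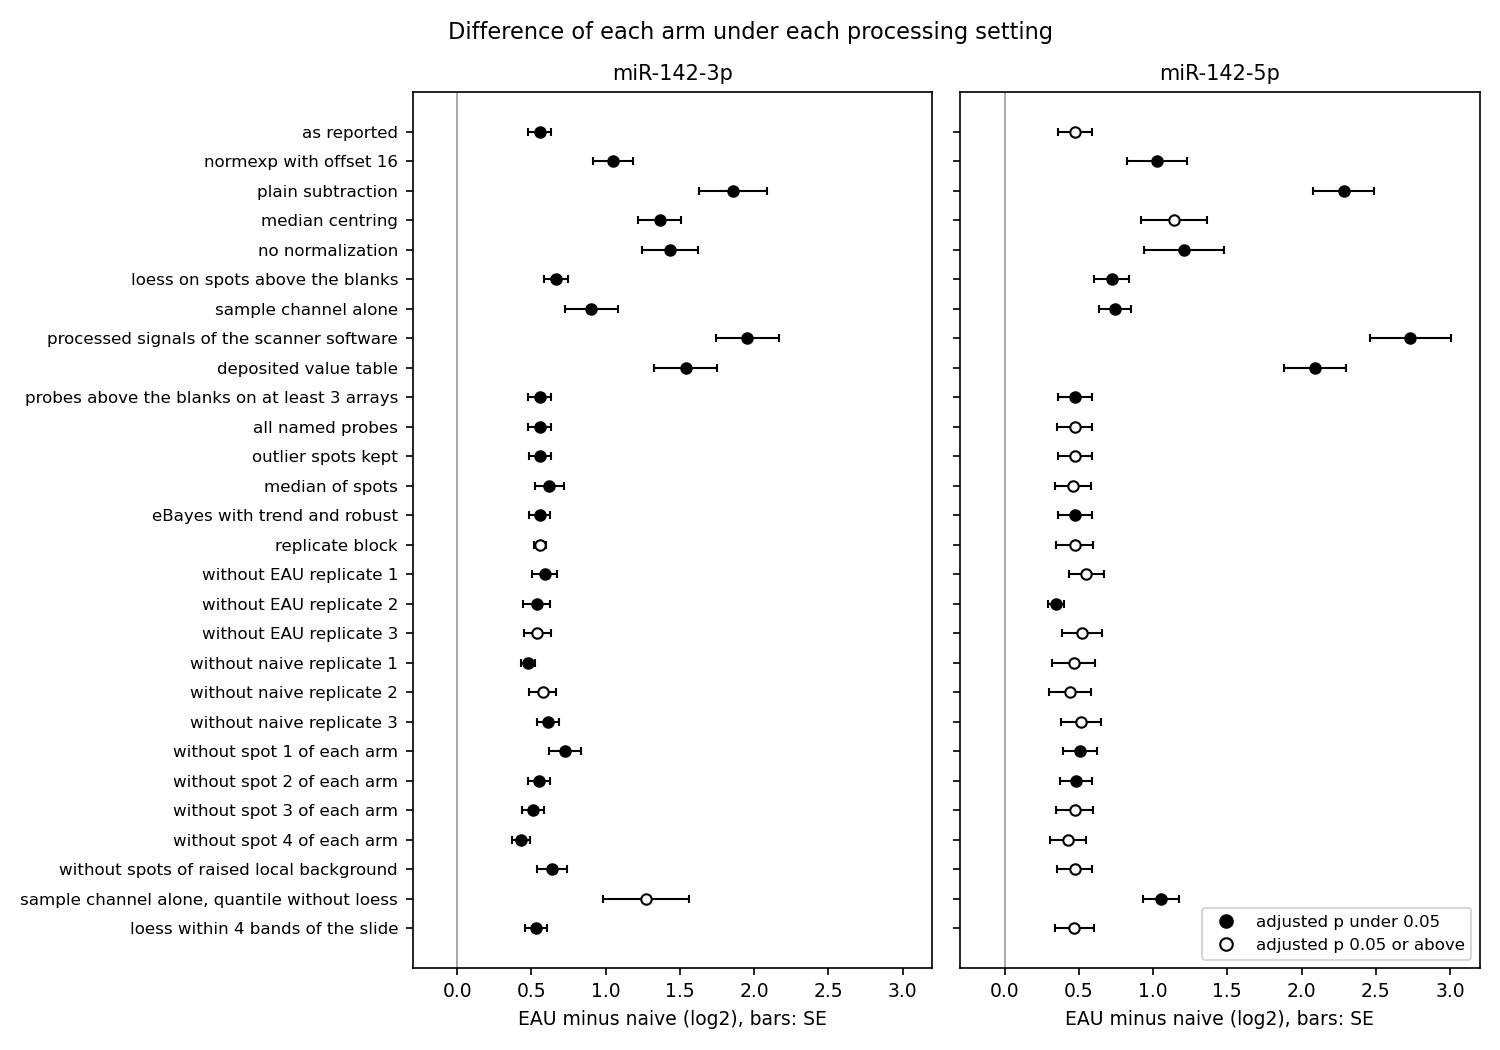
EAU minus naive difference of miR-142-3p (left) and miR-142-5p (right), in log2 with its SE, under each way of processing the same 6 arrays, from the reported one (top) through the alternatives; filled points had an adjusted p under 0.05 in limma. All points lie to the right of 0, between 0.43 and 1.95 for the 3p arm and between 0.35 and 2.73 for the 5p arm.

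The processing set the size of both differences more than their direction. With the background plainly subtracted the differences were 1.85 for miR-142-3p and 2.28 for miR-142-5p, and with the scanner software's own processed signals 1.95 and 2.73, all past the threshold. With each array centred on its median in place of loess they were 1.36 (limma, adjusted p = 0.0249) and 1.14 (limma, adjusted p = 0.0700). The 3p call was lost without EAU replicate 3 (difference 0.54; limma, adjusted p = 0.0712) and without naive replicate 2 (difference 0.58; limma, adjusted p = 0.0612).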

How the data were processed

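Per the file headers, Agilent Feature Extraction 9.1.3.1 wrote the deposited scanner files, which hold the intensity of 8720 spots an array in 2 channels beside the local background. The authors also deposited a table of linear ratios whose normalization is not given in the sources used here. Over 196 probes bright on all arrays, the deposited ratio followed Hy3 over Hy5 (median correlation across arrays 0.932). Of its 1972 probes, 36 with ratios over 32 were left out, and its column medians were 0.809, 0.886 and 0.807 for EAU and 0.879, 0.851 and 0.769 for naive replicates.

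In limma 3.58.1 under R 4.3.3 the mean intensity was corrected by normexp (offset 50), put through loess within each array (control spots at weight 0), cleared of outlier spots (0 of them from miR-142) and averaged per probe on the log2 scale. Of 597 mouse probes 595 could be tested. EAU was compared with naive by lmFit and eBayes, two-sided, adjusted by Benjamini-Hochberg with a threshold of 0.05; the contrast between the arms and the raw brightness had exact permutation tests. For the sample channel alone, loess was followed by Aquantile, and both steps use the reference channel too. The number of arrays limits the precision, and the p-values cover the variation among these harvests.

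The members, lists and tests were chosen with earlier results of these data known. Named are both arms, all leukocyte and erythroid members, the 4 probes most alike to each arm, and other list members that passed or had the 2 smallest p; some of the last are given as counts only. Replicate numbers were checked as pairs: the same-number correlations of deviations were 0.19, -0.15 and 0.29, and the others ran from -0.44 to 0.30. With 3 arrays a group this cannot settle whether the numbers pair the samples, and the reported fit does not pair them. Alternatives that leave out spots, drop loess for quantile scaling or run loess by bands of the slide were chosen after seeing the data. The fit was tested on simulated data. Sequences and coordinates came from RefSeq tables, and RNAfold 2.7.2 folded the hairpin.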

Additional observations from a re-analysis of the deposited data

How the results depend on the processing

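Both arms kept a positive difference under all alternatives run (20 chosen with the design and 7 after seeing the data), from 0.43 to 1.95 for miR-142-3p and from 0.35 to 2.73 for miR-142-5p, on the log2 scale. For miR-142-3p the call was lost with the replicate block (0.56, limma adjusted p = 0.0654) and with quantile scaling of the sample channel in place of loess (1.27, adjusted p = 0.0519); leaving out 1 array gave 0.48 to 0.61, with the call lost in 2 of the cases. For miR-142-5p the threshold was passed with an offset of 16 (1.03), plain subtraction (2.28), no normalization (1.21), loess on spots above the blanks (0.72), the sample channel alone (0.74), the scanner software's processed signals (2.73), the authors' deposited ratios (2.09), quantile scaling (1.05), without the first or second spot (0.51 and 0.48), and, at the same 0.47, with the filter on at least 3 arrays or eBayes with trend and robust; leaving out 1 array gave 0.35 to 0.55. The cause of these moves was not tested, apart from the filter, which tests fewer probes (288). Both arms enter that filter only through their 3 EAU arrays, so a pass under it carries no weight. MiR-142-5p missed the threshold with the replicate block (0.47, limma adjusted p = 0.146). Of the fits without 1 array it passed only without EAU replicate 2, and missed in the others (limma adjusted p = 0.0549 to 0.169). It also missed with median centring, all named probes, outlier spots kept and the median of spots.

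The difference between the arms, 0.08, turned sign with plain subtraction (-0.43), loess on spots above the blanks (-0.057), the processed signals (-0.78) and the deposited ratios (-0.55), and leaving out 1 array gave 0.01 to 0.19. Of all mouse probes, 77 passed as reported (25 higher, 52 lower), 2 with median centring (1 and 1), 25 without normalization (21 and 4), 33 with loess on spots above the blanks (18 and 15), 47 with the median of spots (21 and 26), 2 with the replicate block (0 and 2), and 7 to 77 with 1 array left out; the splits were 35 and 27 with plain subtraction, 42 and 30 with the processed signals and 42 and 40 with the deposited ratios. Of the 7 leukocyte probes, 1 passed as reported, 4 with plain subtraction, 0 with the replicate block, 0 to 2 with 1 array left out, and 2 with the offset of 16, no normalization, loess on spots above the blanks, the sample channel alone, the processed signals, the deposited ratios, the filter, or trend and robust. Beside these, 92 of 595 mouse probes passed with the offset of 16 and 70 of 595 with the sample channel alone. With the filter 62 of 288 passed, and with trend and robust 96 of 595. Brightness near the blanks limits both arms on the naive arrays, where levels are bounds.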
